A study of Mus musculus with 8 samples.

Results

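The 9 genes described here encode costimulatory and activation molecules of the T cell surface. Cd69 encodes an early activation antigen. Icos, Tnfrsf9 (CD137) and Cd27 encode costimulatory receptors, and Cd40lg, Tnfsf8 and Tnfsf11 encode the ligands of CD40, CD30 and RANK. Cd44 encodes a hyaluronan receptor and Cd2 an adhesion receptor. They were chosen by symbol among the 32285 genes of the deposited matrices. Each was read from raw UMI (unique molecular identifier) counts in CD4, CD8 and Foxp3-positive T cells of each library. The subset gates used Cd4, Cd8a, Cd8b1 and Foxp3, the T cell gate used T, B and myeloid cell genes, and none of the 9 genes entered a gate.

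T cells receive a costimulatory signal beside the signal of the antigen receptor. CD28 and ICOS of the immunoglobulin family, and receptors of the tumour necrosis factor (TNF) family such as CD27 and CD137, carry that signal into the T cell. T cells in turn present ligands of the TNF family: CD40 ligand licenses dendritic cells and B cells, and RANK ligand acts on myeloid cells and osteoclast precursors. CD69 is induced early after stimulation and holds cells in tissue by opposing exit, and CD44 is a standard mark of antigen-experienced cells. In the NOD mouse, T cells that infiltrate the pancreatic islets destroy the insulin-producing beta cells.

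The cells came from the pancreas of spontaneously diabetic NOD mice, described as female and 3 to 4 months old (the protocol gives up to 5 months), and were measured in 8 single-cell 3′ RNA libraries. The active library came from mice whose glucose exceeded 600 mg/dl and the onset library from mice at 250 mg/dl, both untreated controls harvested on day 1. Mice with new onset diabetes (200 to 300 mg/dl) received PPCA, a combination of the MDM2 inhibitor nutlin-3 at 50 mg/kg and the Wee1 inhibitor MK-1775 at 25 mg/kg, or its vehicle of 30% ethanol, 5% Tween 20 and 65% PEG300. Dosing was daily with harvest 1 day after the last dose, and the vehicle and PPCA arms had 1 library each on days 2, 3 and 4. Cells positive for CD45, CD3 and TCR beta were sorted, frozen and later processed together. The labels do not give the number of mice per library, nor say that libraries of an arm came from separate animals, so p-values measure only the spread between these libraries, which may be technical.

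The libraries held 7023 to 13129 barcodes and 36934580 to 67603740 UMIs. After filtering, each gave 2617 to 4718 CD4 cells, 1612 to 4424 CD8 cells and 216 to 471 Foxp3-positive cells, while 21.7% to 35.1% of T cells fell in neither the CD4 nor the CD8 gate. The summed T cell markers lay between 5359 and 7247 counts per 1000000 UMIs of the summed cells (CPM), the 4 B cell markers at most at 9.0 CPM and the 5 myeloid markers at most at 5.6 CPM, each over all T cells of a library. The T cell gate required T cell marker UMIs and allowed at most 1 UMI over Cd79a, Cd79b, Ms4a1, Lyz2, Csf1r and C1qa. These 3 sums were therefore set in part by the gate and are not a measure of purity. The 3 NK cell markers lay between 16.2 and 38.3 CPM, and the 2 red cell markers reached 63.8 CPM. The 12 pancreas markers, hormone and digestive enzyme genes, were at 10.6 CPM in the active and 21.2 CPM in the onset library and at 63.6 to 143 CPM in the other 6, with up to 264 CPM in the CD4 cells of PPCA day 3 and 302 CPM in the Foxp3-positive cells of vehicle day 3. Their part in the results was not tested. Pairs of libraries shared 14 to 41 barcodes, at most 0.431% of the smaller one. Against the female label, 4 libraries (vehicle days 2 and 3, PPCA days 3 and 4) carried 186 to 272 CPM of the Y-linked genes Ddx3y, Eif2s3y, Kdm5d and Uty and at most 0.746 CPM of Xist. The other 4 libraries carried 418 to 617 CPM of Xist and at most 0.169 CPM of the Y-linked genes. Results are therefore also given for these 4 libraries alone, or with a factor for Y-linked transcripts. Both day 4 libraries also stood apart in 10 early response genes (Fos, Fosb, Jun, Junb, Egr1, Atf3, Dusp1, Nr4a1, Ier2, Hspa1a), which summed to 4339 and 6702 CPM in their T cells against 978 to 2400 CPM elsewhere.

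CD8 and CD4 cells of the same library differed in 6 of the 9 genes, all lower in CD8 cells, most of all in the ligands. The CD4 cells here include the Foxp3-positive ones, in which several of these genes were high. Beside Foxp3-free CD4 cells, which were not tested against CD8 cells, the median CD8 level was lower for every gene but Tnfrsf9, and only narrowly for Icos. In edgeR's quasi-likelihood test with library as a block, 45.3% of 12627 genes passed an adjusted p of 0.05 (Benjamini-Hochberg over all genes tested, used throughout), and 22.2% of the 12627 were lower in CD8 cells, so a call by itself was common. Scaling by library size alone called 2202 genes higher and 3633 lower, in place of 2913 and 2809. The median log2 fold change of the 9 genes was -0.44, beside 0.00063 over all genes.

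Among the ligands, Cd40lg lay between 67.7 and 116 CPM in CD4 cells (median 97.2) and between 2.65 and 8.27 CPM in CD8 cells (median 6.13). The 2 ranges did not overlap, and CD8 cells were lower in 8 of 8 libraries (log2 fold change -4.03, SE 0.094, edgeR adjusted p = 2.1e-14). Tnfsf11 lay between 4.63 and 20.3 CPM in CD4 cells (median 8.15) and between 0.86 and 4.73 CPM in CD8 cells (median 2.25), lower in 8 of 8 libraries (log2 fold change -2.05, SE 0.21, edgeR adjusted p = 9.6e-07). The Tnfsf11 ranges touched only at the onset CD8 value and the active CD4 value, and the CD8 sums rested on 15 to 64 UMIs per library.

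Tnfsf8 overlapped between the subsets, at 48.0 to 147 CPM in CD4 cells (median 66.4) and 26.5 to 58.8 CPM in CD8 cells (median 46.9). It was lower in CD8 cells in 7 of 8 libraries (log2 fold change -0.72, SE 0.18, edgeR adjusted p = 0.0046), with the widest gap in the PPCA day 4 library. Without both day 4 libraries its log2 fold change was -0.41 (edgeR adjusted p = 0.0038), and in the 4 libraries without Y-linked transcripts also -0.41 (edgeR adjusted p = 0.036).

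Of the receptors, Icos lay between 22.3 and 54.6 CPM in CD4 cells and between 12.7 and 30.0 CPM in CD8 cells, lower in 7 of 8 libraries (log2 fold change -0.44, SE 0.093, edgeR adjusted p = 0.0010). In the 4 libraries without Y-linked transcripts the Icos difference was smaller, -0.25 (edgeR adjusted p = 0.036). Beside Foxp3-free CD4 cells the Icos medians were close, 23.1 CPM in CD8 and 23.4 CPM in those cells. CD8 cells were then higher in the active and onset libraries and lower in the others, which was not tested. Cd27 (123.7 to 299.5 CPM in CD4 cells, 126 to 287 CPM in CD8 cells) and Tnfrsf9 (6.68 to 22.6 and 5.39 to 14.4 CPM) missed the threshold, at log2 fold changes of -0.063 (SE 0.029, edgeR adjusted p = 0.090) and -0.15 (SE 0.13, edgeR adjusted p = 0.39). Both overlapped almost fully between the subsets. Leaving out the vehicle day 4 library brought Tnfrsf9 past the threshold at -0.28 (edgeR adjusted p = 0.037), as did leaving out both day 4 libraries, whereas in the 4 libraries without Y-linked transcripts it was at 0.012 (edgeR adjusted p = 0.97). Beside Foxp3-free CD4 cells the direction of Tnfrsf9 turned, with medians of 9.10 CPM in CD8 and 6.03 CPM in those cells. CD8 cells were then higher in every library but PPCA day 2 and vehicle day 3, which was not tested. Leaving out the PPCA day 4 library brought Cd27 past the threshold at -0.08 (edgeR adjusted p = 0.019), as did leaving out both day 4 libraries, thinning the cells and scaling by library size alone (-0.11, edgeR adjusted p = 0.0033).

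Cd44, at 29.2 to 49.9 CPM in CD4 cells and 17.2 to 41.1 CPM in CD8 cells, was lower in CD8 cells in 7 of 8 libraries, the onset library being the exception (log2 fold change -0.45, SE 0.11, edgeR adjusted p = 0.0038). That call was lost in the 4 libraries without Y-linked transcripts (-0.13, edgeR adjusted p = 0.21). Cd2 was lower in 8 of 8 libraries by a small amount (log2 fold change -0.13, SE 0.022, edgeR adjusted p = 0.00014), while Cd69 missed the threshold, with overlapping ranges of 156 to 1202 CPM in CD4 and 159 to 1099 CPM in CD8 cells (log2 fold change -0.029, SE 0.029, edgeR adjusted p = 0.44). With library size alone Cd69 was called lower, at -0.07 (edgeR adjusted p = 0.033).

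Other costimulatory genes did not share one direction. Of a list of 26 such genes, 22 were tested, 9 were called higher and 7 lower in CD8 cells. Tnfrsf4 (the receptor OX40), Tnfrsf25 (the receptor DR3) and Il2ra (the interleukin-2 receptor alpha chain) were lower in CD8 cells, by log2 fold changes of -2.26, -2.12 and -1.96. Cd86, which encodes a ligand of CD28, was higher in CD8 cells by 1.90. The edgeR adjusted p was at most 2.3e-07 for each of the 4. B and myeloid cells express Cd86 too. The B and NK cell markers were higher in CD8 cells in 8 of 8 libraries, and the myeloid and gamma delta T cell markers were lower in 8 of 8. The 4 B cell markers summed to 9.4 to 17.9 CPM in CD8 against 1.8 to 2.8 CPM in CD4 cells, with 0 to 2 of the 4 at 0. The 3 NK cell markers (Ncr1, Klrb1c, Eomes) summed to 43.8 to 95.6 CPM against 2.2 to 8.2 CPM, with 0 or 1 of the 3 at 0. The 5 myeloid markers summed to 0.94 to 2.6 CPM in CD8 against 2.6 to 8.1 CPM in CD4 cells, with 0 to 3 of the 5 at 0. The 5 regulatory T cell markers (Foxp3, Ikzf2, Il2ra, Ctla4 and Capg) summed to 37.5 to 147 CPM in CD8 against 97.1 to 325 CPM in CD4 cells. They were lower in CD8 cells in every library but onset. The part of these markers in the CD8 differences was not tested. In CD8 cells, the early response genes were called lower in 8 of 10 cases, at a median log2 fold change of -0.54, and their part in the CD8 differences was not tested.

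**Figure D1:**
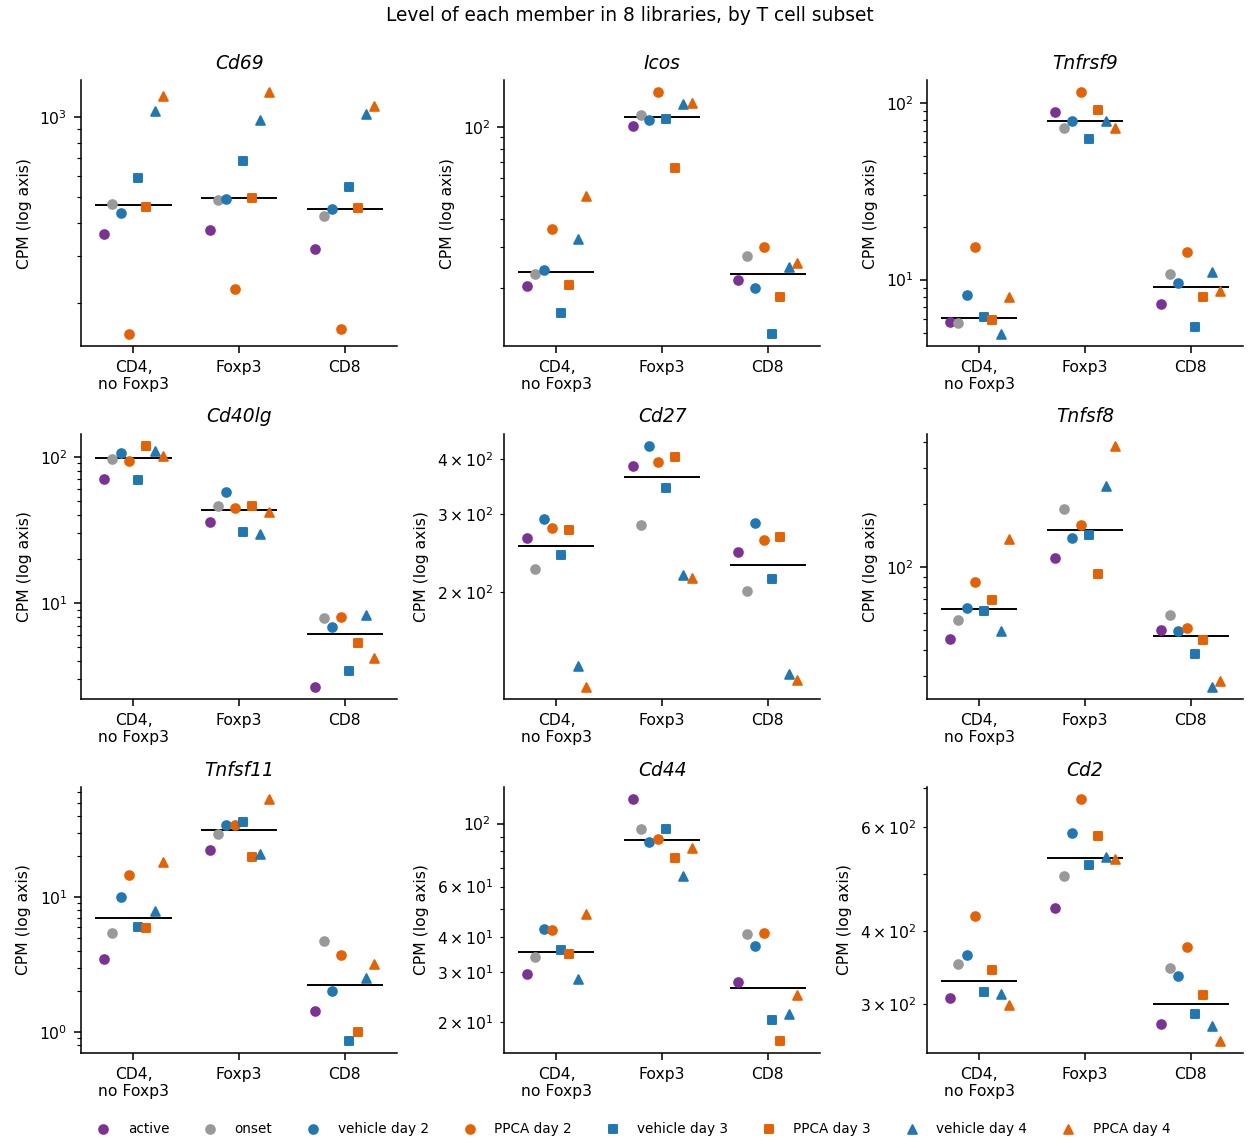
Level of each of the 9 genes in CPM (log axis) in CD4 cells without a Foxp3 UMI, Foxp3-positive cells and CD8 cells; each point is 1 of 8 libraries and the black line their median. Cd40lg in CD8 cells stays at or below 8.27 CPM, and Tnfrsf9 in Foxp3-positive cells stays at or above 62.9 CPM, both apart from the other subsets.

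Foxp3-positive T cells, the regulatory subset, had the highest levels of most of the 9 genes. Compared with Foxp3-free CD4 cells of the same library, 7 of 9 were called higher and 1 lower, where 18.2% of 12179 genes were called higher and 20.4% lower. The median log2 fold change of the 9 genes was 1.06, beside -0.026 over all genes. TMM scaling lowers every log2 fold change of this comparison by 0.23 relative to scaling by library size alone, which called 4815 genes higher and 877 lower in place of 2214 and 2481. The 8 calls on the 9 genes held under both scalings.

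Tnfrsf9 and Icos led. Tnfrsf9 lay between 62.9 and 115 CPM in Foxp3-positive cells (median 79.6) and between 4.92 and 15.3 CPM in Foxp3-free CD4 cells (median 6.03). No library of one subset reached the other (log2 fold change 3.28, SE 0.10, edgeR adjusted p = 2.3e-22). Icos was likewise separate, at 66.4 to 141 CPM against 15.6 to 50.3 CPM (log2 fold change 1.84, SE 0.094, edgeR adjusted p = 4.5e-17), with the lowest Foxp3-positive value in the PPCA day 3 library. Cd27 overlapped, at 215 to 430 CPM against 121 to 292 CPM, yet was higher in 8 of 8 libraries (log2 fold change 0.33, SE 0.040, edgeR adjusted p = 4.1e-08).

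The ligands split. Tnfsf11 was higher in Foxp3-positive cells, at 19.8 to 53.0 CPM against 3.504 to 18.3 CPM, without overlap (log2 fold change 1.65, SE 0.14, edgeR adjusted p = 1.2e-11). Tnfsf8 was higher too, at 92.4 to 382 CPM against 45.2 to 136 CPM (log2 fold change 1.13, SE 0.10, edgeR adjusted p = 4.7e-11), with both day 4 libraries at the top and higher in 8 of 8 pairs. Cd40lg went the other way, at 29.8 to 57.6 CPM against 69.6 to 119 CPM, lower in 8 of 8 libraries with no overlap (log2 fold change -1.41, SE 0.074, edgeR adjusted p = 5.9e-17).

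Cd44 was separate between the subsets, at 65.2 to 122 CPM in Foxp3-positive cells and 28.3 to 48.0 CPM in Foxp3-free CD4 cells (log2 fold change 1.06, SE 0.087, edgeR adjusted p = 6.6e-12). Cd2 was separate as well, at 438 to 670 CPM against 299 to 424 CPM (log2 fold change 0.45, SE 0.036, edgeR adjusted p = 2.1e-12). Cd69 was the exception: its log2 fold change was -0.10 (SE 0.046, edgeR adjusted p = 0.069) with TMM scaling and 0.12 (edgeR adjusted p = 0.016) with library size alone, so its direction depended on the scaling. With TMM it was called lower without the low-count filter (-0.15), without doublet removal (-0.11) and without the PPCA day 2 library (-0.16). The 8 calls were also made in the 4 libraries without Y-linked transcripts and without both day 4 libraries.

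Costimulatory genes beyond the 9 mostly rose with Foxp3 as well: 18 of 23 tested were called higher and 1 lower. The leading ones were Il2ra (log2 fold change 4.74), Tnfrsf8 (the receptor CD30, 4.05), Cd80 (a ligand of CD28 and CTLA-4, 3.94) and Tnfrsf4 (3.37), each with an edgeR adjusted p of at most 4.6e-08. The B cell markers summed to 4.1 to 13.0 CPM in Foxp3-positive cells, with 1 to 3 of the 4 at 0, and the NK cell markers to 9.2 to 29.5 CPM, both above the range in CD4 cells, and their part in these differences was not tested. Of the Foxp3-positive cells, 19 to 51 per library fell in the CD8 gate. With CD4-gated Foxp3-positive cells alone, Tnfrsf9 was at 3.32, Icos at 2.01, Tnfsf11 at 1.96 and Cd40lg at -1.09, and all 8 calls were made. Cd69 was then called lower, at -0.18 (edgeR adjusted p = 0.0097).

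The share of cells with a UMI gave a similar order for Tnfrsf9 and Cd40lg. With every cell thinned to 2000 UMIs and shallower cells left out, a Tnfrsf9 UMI was seen in 6.60% to 11.4% of Foxp3-positive cells (median 9.32%), 0.539% to 1.18% of Foxp3-free CD4 cells and 0.772% to 1.35% of CD8 cells. For Cd40lg the median shares were 16.7% of CD4, 6.67% of Foxp3-positive and 1.38% of CD8 cells, and unthinned 33.7%, 14.1% and 2.50%. Cd69 was seen in a median of 48.4% of CD4, 51.6% of Foxp3-positive and 48.8% of CD8 cells (unthinned 69.6%, 69.9% and 73.7%). For these 9 genes free RNA was gauged in the 33 non-T cells deep enough, thinned to the same 2000 UMIs: 0 had a UMI of Icos, Tnfrsf9, Tnfsf8 or Tnfsf11, 1 had Cd40lg, 1 had Cd27, 4 had Cd44 (12.1%), 8 had Cd2 (24.2%) and 24 had Cd69. The Cd44 share of the non-T cells was above its median thinned share of CD4 cells (7.17%), so the shares of Cd44 and Cd69 are not read against a background here. B and myeloid cells also express Cd44 and Cd69. A Foxp3 UMI was seen in 0.386% to 1.02% of thinned CD8 cells. The Cd40lg share of CD8 cells is of the same order, so whether those UMIs are CD8 expression was not tested.

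**Figure D2:**
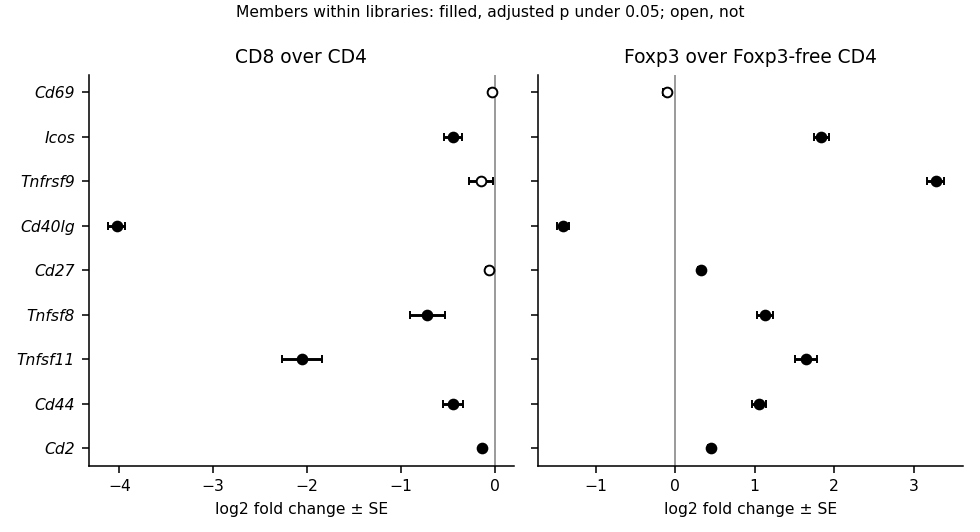
Log2 fold change with its SE (bars) of the 9 genes in 2 comparisons within 8 libraries, from edgeR; filled points have an adjusted p under 0.05. Cd40lg is the leftmost point of CD8 over CD4 at -4.03, and Tnfrsf9 the rightmost of Foxp3 over Foxp3-free CD4 at 3.28.

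Single cells showed which genes were found together. In thinned CD4 cells Icos, Tnfrsf9, Tnfsf8, Tnfsf11 and Cd44, all called higher in Foxp3-positive cells, were co-detected more often than expected within libraries in each of their 10 pairs. Cd27 and Cd2 were called higher in Foxp3-positive cells too, yet their pairs with the 5 stood lower, as given below. That call therefore does not set the 5 apart. Icos and Tnfsf11 were found together in 100 CD4 cells where 25.5 were expected within libraries (median odds ratio 5.98, range 3.55 to 13.4 over 8 libraries). Tnfsf8 and Tnfsf11 shared 157 cells against 43.5 expected (median odds ratio 5.06, range 2.79 to 7.97). Tnfsf11 and Cd44 shared 105 against 32.0 (4.52, range 2.47 to 5.91), and Icos and Cd44 shared 240 against 103 (2.86, range 2.34 to 4.11). Tnfrsf9 was found with Tnfsf11 in 32 cells against 5.53 expected, too few per library for an odds ratio to be given. Its median odds ratios were 2.93 with Tnfsf8 (72 against 31.6), 2.86 with Icos (44 against 17.1) and 2.63 with Cd44 (48 against 23.2). Icos and Tnfsf8 stood at 2.06 and Tnfsf8 and Cd44 at 1.95. Odds ratios had 0.5 added to each cell count, which raises those of rare pairs. Without it, each of these 10 pairs was found in more cells than expected in 8 of 8 libraries.

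Pairs with Cd69, Cd27 or Cd40lg stood lower, between 0.66 and 1.37. Cd2 pairs with the 5 genes lay between 1.05 and 1.68, the highest with Tnfrsf9. Cd40lg and Tnfrsf9 shared 33 cells against 52.4 expected (median odds ratio 0.66, range 0.35 to 1.06), with more cells than expected in 0 of 8 libraries. Icos and Cd27 shared 447 against 484 (0.89, range 0.78 to 0.99), below 1 in 8 of 8 libraries. In CD8 cells Icos and Cd44 shared 79 against 47.6 (1.91, range 1.14 to 2.97), and Tnfsf8 and Cd44 shared 61 against 74.4 (0.90, range 0.52 to 1.64), where CD4 cells had 334 against 184 (1.95, range 1.57 to 3.499). These are descriptions: cells of 1 library are not replicates, and the difference between CD4 and CD8 cells was not tested. CD4 cells here include the Foxp3-positive ones, in which several of these genes were high.

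**Figure D3:**
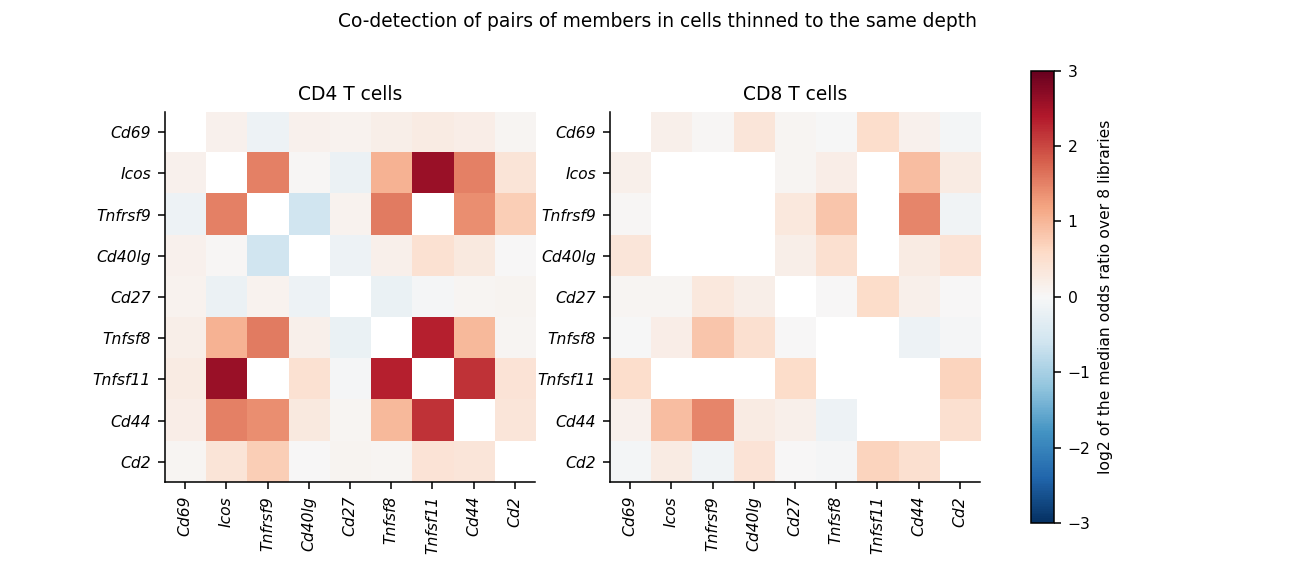
Log2 of the median odds ratio over 8 libraries that a cell thinned to 2000 UMIs holds UMIs of both genes of a pair, for CD4 (left) and CD8 (right) cells; pairs with fewer than 10 cells expected are left blank. The deep red cells of CD4 join Tnfsf11 to Icos, Tnfsf8 and Cd44, at 5.98, 5.06 and 4.52 before taking logs.

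Since Tnfrsf9, Tnfsf11 and Cd44 were higher in Foxp3-positive cells by log2 fold changes above 1 and Cd27 by 0.33, their promoters are shown side by side. The table of RefSeq promoters (build GRCm38.p6) matched 5 of the 9 genes by symbol, with 6 windows in all. The 250 bases before the transcription start are given 5′ to 3′ on the gene's strand, for the 4 windows that no GENCODE exon overlaps. Capitals mark matches, on either strand, to the letters TGANTCA (AP-1), GGAAA (the core of NFAT sites), GGG, any pair of bases, then TTTCC (a form of the NF-kB site, which holds a GGAAA core on the other strand) and TAAACA (the forkhead core).
Tnfrsf9, upstream start, chr4:150919905-150920154, plus strand: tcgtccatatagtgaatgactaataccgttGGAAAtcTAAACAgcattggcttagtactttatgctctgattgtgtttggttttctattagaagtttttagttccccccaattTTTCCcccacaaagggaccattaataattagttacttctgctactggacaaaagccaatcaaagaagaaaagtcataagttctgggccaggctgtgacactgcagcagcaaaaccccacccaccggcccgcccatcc
Cd27, chr6:125237028-125237277, minus strand: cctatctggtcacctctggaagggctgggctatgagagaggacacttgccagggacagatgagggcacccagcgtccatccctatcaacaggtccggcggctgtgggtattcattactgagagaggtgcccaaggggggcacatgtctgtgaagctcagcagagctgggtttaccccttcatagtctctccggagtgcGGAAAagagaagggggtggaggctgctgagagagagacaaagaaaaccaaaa
Tnfsf11, chr14:78308044-78308293, minus strand: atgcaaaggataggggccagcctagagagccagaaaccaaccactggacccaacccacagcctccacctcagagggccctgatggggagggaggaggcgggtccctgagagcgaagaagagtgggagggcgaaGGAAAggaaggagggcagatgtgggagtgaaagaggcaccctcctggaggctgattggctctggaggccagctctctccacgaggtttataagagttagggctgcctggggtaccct
Cd44, chr2:102901666-102901915, minus strand: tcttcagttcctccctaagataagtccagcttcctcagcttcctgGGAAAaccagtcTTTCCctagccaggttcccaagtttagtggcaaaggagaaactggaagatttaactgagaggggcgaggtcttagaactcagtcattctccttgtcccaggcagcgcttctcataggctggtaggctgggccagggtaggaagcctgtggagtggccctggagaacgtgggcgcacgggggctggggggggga

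Among all 32851 windows of this length in the table, 55.6% held GGAAA, 12.0% TAAACA, 6.75% TGANTCA and 1.41% the NF-kB form. The printed windows of Tnfsf11 and Cd27 held 1 GGAAA match each and that of Cd44 held 2. The upstream Tnfrsf9 window held 2, with 1 TAAACA match 213 bases before the start. The window before the second Tnfrsf9 start (chr4:150927749-150927998) held 1 TGANTCA match and 1 match to the NF-kB form, 15 and 43 bases before that start. A GENCODE exon overlaps that window, which is not printed. The same holds for the Tnfsf8 window, which held 1 GGAAA match. A match is a description of letters, and no binding was measured.

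No difference between PPCA and vehicle passed the threshold for the 9 genes. The comparison asks what the p53 potentiator and cell cycle disruptor does to the infiltrating T cells, and edgeR with harvest day as a factor and 2 residual degrees of freedom called 0 of 9 genes in CD4, CD8 or Foxp3-positive cells. The background was as low, at 0% of 11935 genes in CD4, 0.0167% of 11943 in CD8 and 0.0684% of 8771 in Foxp3-positive cells. Unadjusted, 826 genes had p under 0.05 in CD4 cells. DESeq2 called 34, 39 and 7 genes, none of them among the 9.

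Cd69 was furthest below vehicle. In CD4 cells it stood at 437, 596 and 1052 CPM in vehicle on days 2, 3 and 4, and at 156, 464 and 1202 CPM in PPCA. In CD8 cells it stood at 450, 546 and 1024 CPM in vehicle and 159, 454 and 1099 CPM in PPCA. PPCA was lower on days 2 and 3 and higher on day 4 in both subsets, and the arms overlapped.

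The fitted Cd69 log2 fold change was -0.63 in CD4 (SE 0.27, edgeR adjusted p = 0.72), -0.63 in CD8 (SE 0.27, edgeR adjusted p = 0.61) and -0.44 in Foxp3-positive cells (SE 0.21, edgeR adjusted p = 0.72). The log2 ratio on day 2 was -1.48 in CD4 cells and -1.50 in CD8 cells. Without day 4 it was called lower in CD8 (-1.001, edgeR adjusted p = 0.00064) and Foxp3-positive cells (-0.85, edgeR adjusted p = 0.00014), and with a factor for Y-linked transcripts in all 3 subsets, at -0.63, -0.64 and -0.45 (edgeR adjusted p at most 0.011, with 1 residual degree of freedom). Without day 2 the CD8 value was -0.18 (edgeR adjusted p = 0.89). Dropping the low-count filter also brought Cd69 past the threshold in CD4 cells, at -0.64 (edgeR adjusted p = 0.0084), and in CD8 cells, at -0.63 (edgeR adjusted p = 0.0074). The PPCA day 2 library also had the lowest early response sum of the 8, 1114 CPM in CD4 cells against 2566 in vehicle of that day, and its part in the Cd69 values was not tested.

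Tnfrsf9 and Tnfsf8 were higher with PPCA on 3 of 3 days in CD4 cells without passing the threshold. Tnfrsf9 stood at 12.0, 8.27 and 6.68 CPM in vehicle on days 2, 3 and 4 and at 22.6, 10.4 and 10.2 CPM in PPCA (log2 fold change 0.55, SE 0.17, edgeR adjusted p = 0.68). Tnfsf8 stood at 67.3, 65.4 and 53.8 CPM in vehicle and at 91.7, 70.8 and 147 CPM in PPCA (log2 fold change 0.59, SE 0.25, edgeR adjusted p = 0.72). Without the low-count filter CD4 Tnfsf8 passed, at 0.58 (edgeR adjusted p = 0.024). All 3 PPCA values of Tnfsf8 lay above all 3 vehicle values, while those of Tnfrsf9 overlapped. How many of all genes kept 1 direction on each day, or had separate arms, was not counted. Neither pattern is therefore read as a response to PPCA. The 5 regulatory T cell markers summed to 1481 to 2178 CPM in Foxp3-positive cells, in part because Foxp3 is one of the 5 and set that gate. In CD4 cells they summed to 160, 169 and 127 CPM in vehicle and to 237, 158 and 325 CPM in PPCA. In Foxp3-free CD4 cells Tnfsf8 stood at 64.0, 61.6 and 49.3 CPM in vehicle and at 84.6, 69.2 and 136 CPM in PPCA, higher on each day. There Tnfrsf9 stood at 8.16, 6.15 and 4.92 CPM in vehicle and at 15.3, 5.91 and 7.99 CPM in PPCA, higher on days 2 and 4. In CD8 cells Tnfsf8 stood at 49.2, 38.5 and 26.5 CPM in vehicle and 50.9, 44.6 and 28.3 CPM in PPCA (log2 fold change 0.030, SE 0.086). The CD8 minus CD4 difference in the response to PPCA passed for 0.0161% of 12447 genes and 0 of the 9. For Tnfsf8 it was -0.53 (SE 0.18, edgeR adjusted p = 0.86), called without day 3 (-0.89, edgeR adjusted p = 0.00052) and without the low-count filter (-0.52, edgeR adjusted p = 3.1e-08).

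In CD8 cells Icos and Tnfsf11 were also higher with PPCA on 3 of 3 days, without passing the threshold. How many of all genes did so was not counted here either. Icos stood at 20.0, 12.7 and 24.6 CPM in vehicle and at 30.0, 18.4 and 25.6 CPM in PPCA (log2 fold change 0.30, SE 0.12, edgeR adjusted p = 0.61), with the arms overlapping. Tnfsf11 stood at 2.00, 0.86 and 2.49 CPM in vehicle and at 3.72, 1.01 and 3.19 CPM in PPCA (log2 fold change 0.42, SE 0.29, edgeR adjusted p = 0.76). In CD4 cells Icos was at 0.31 (SE 0.15), Tnfsf11 at 0.50 (SE 0.27), Cd44 at 0.14 (SE 0.18), Cd40lg at 0.068 (SE 0.17), Cd27 at -0.090 (SE 0.094) and Cd2 at 0.017 (SE 0.099) on the log2 scale. In CD8 cells the same 6 genes lay between -0.15 and 0.42, and in Foxp3-positive cells between -0.11 and 0.15. Of the other costimulatory genes, 0 of 21 tested were called in CD4 or CD8 cells and 0 of 15 in Foxp3-positive cells. With SEs of up to 0.32, these fits could not show small changes, and a missed threshold does not show that the arms were alike.

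**Figure D4:**
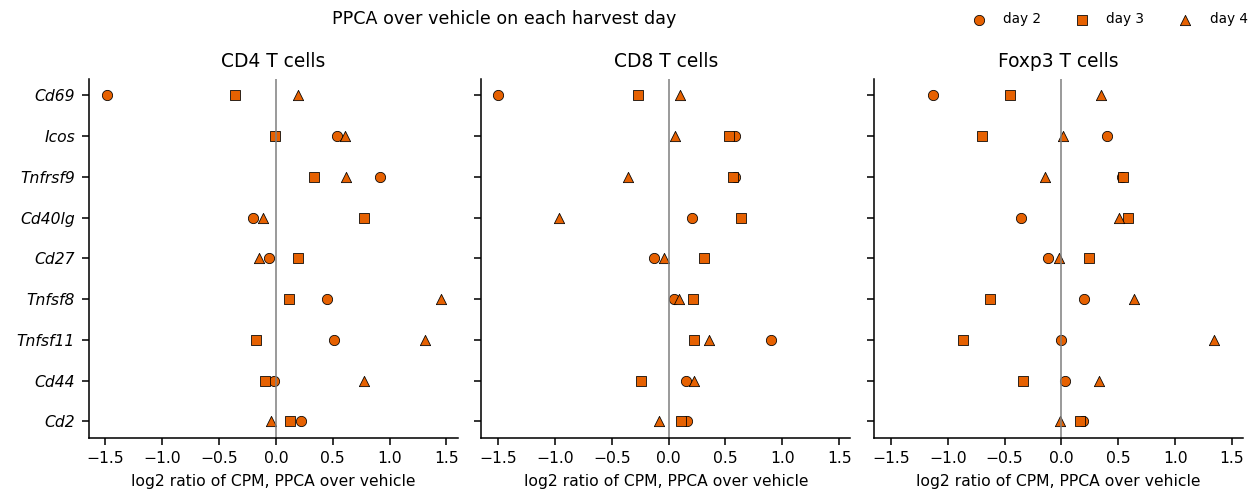
Log2 ratio of CPM, PPCA over vehicle, of the 9 genes on days 2, 3 and 4 (circle, square, triangle) in CD4, CD8 and Foxp3-positive cells. Cd69 on day 2 lies at -1.48 in CD4 and -1.50 in CD8 cells, and Tnfsf8 on day 4 at 1.45 in CD4 cells.

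Between harvest days, 3 of the 9 genes were called in CD4 and 4 in CD8 cells. Comparing day 4 with the mean of days 2 and 3 in the same fit, Cd69 and Icos were called higher and Cd27 lower in both subsets, and Tnfsf8 lower in CD8 cells. In CD4 cells 8.62% of 11935 genes were called higher and 5.50% lower, and in CD8 cells 9.21% and 7.27% of 11943. Each day had 1 library per arm, so day, library and any batch of handling cannot be told apart.

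Cd27, the receptor for CD70, stood at 300 and 247 CPM in the vehicle CD4 cells of days 2 and 3 and at 287 and 283 CPM in those of PPCA, against 137 and 124 CPM on day 4. The 2 day 4 libraries were the lowest of the 8 in CD4, CD8 and Foxp3-positive cells. The log2 fold change was -0.93 in CD4 (SE 0.10, edgeR adjusted p = 0.0024) and -0.84 in CD8 cells (SE 0.11, edgeR adjusted p = 0.0030).

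Cd69 on day 4 was the highest of the 8 libraries in every subset, with the PPCA library above the vehicle one. The log2 fold change was 1.78 in CD4 (SE 0.27, edgeR adjusted p = 0.0077) and 1.71 in CD8 cells (SE 0.27, edgeR adjusted p = 0.0060). Without the day 2 libraries, the CD4 value was 1.16 (edgeR adjusted p = 0.020).

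Icos rose less, by 0.81 in CD4 (SE 0.15, edgeR adjusted p = 0.016) and 0.54 in CD8 cells (SE 0.12, edgeR adjusted p = 0.026). Its CD4 values were 28.8 and 22.4 CPM in vehicle and 41.9 and 22.3 CPM in PPCA on days 2 and 3, and 35.9 and 54.6 CPM on day 4. Its CD8 values were 20.0 and 12.7 CPM in vehicle and 30.0 and 18.4 CPM in PPCA on days 2 and 3. On day 4 they were 24.6 and 25.6 CPM, both below PPCA day 2. Without the day 3 libraries the calls were lost, at 0.61 (edgeR adjusted p = 0.052) and 0.32 (edgeR adjusted p = 0.27), and in CD8 cells also with library size alone, 0.38 (edgeR adjusted p = 0.088), and with DESeq2's test, 0.55 (adjusted p = 0.052).

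Tnfsf8 fell by 0.57 on the log2 scale in CD8 cells (SE 0.093, edgeR adjusted p = 0.0071), where both day 4 libraries were the lowest of the 8. That call was lost without the day 3 libraries (-0.57, edgeR adjusted p = 0.076). In CD4 cells it was at 0.48 (SE 0.26, edgeR adjusted p = 0.25). The CD8 minus CD4 difference, tested after the values had been seen, was -1.03 (SE 0.19, edgeR adjusted p = 0.032), where 0.410% of 12447 genes passed. It lost the call without the day 2 libraries (-0.998, edgeR adjusted p = 0.13), with library size alone (-1.05, edgeR adjusted p = 0.063) and with DESeq2 (-1.01, adjusted p = 0.094). Tnfrsf9, Cd40lg, Tnfsf11, Cd44 and Cd2 missed the threshold in both subsets. CD8 Tnfsf11, at 0.95, passed without the day 2 libraries (1.64, edgeR adjusted p = 0.031), without doublet removal (1.09, edgeR adjusted p = 0.038) and without the low-count filter (0.96, edgeR adjusted p = 0.022). CD4 Tnfsf8 also passed without the low-count filter (edgeR adjusted p = 0.021).

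The early response list moved with day 4: 7 of 10 genes were called higher in CD4 cells (median log2 fold change 1.87, beside -0.011 over all genes) and 9 of 10 in CD8 cells (median 2.30, beside -0.016). Its part in the Cd69 and Icos values was not tested. Of the 21 other costimulatory genes tested, 1 was called higher and 3 lower in CD4 cells, and 1 higher and 4 lower in CD8 cells. Cd28 was the higher one in CD4 (0.87) and CD8 cells (1.13). Cd48, Tnfrsf14 and Tnfsf10 were the lower ones in both, with Cd5, a brake on T cell receptor signalling, also lower in CD8 cells (-0.38, edgeR adjusted p = 0.038). Without the day 2 or the day 3 libraries, where 1 residual degree of freedom was left, Cd48 and Tnfrsf14 in both subsets and CD4 Tnfsf10 lost their calls. The CD4 Tnfsf10 value barely moved, from -0.59 to -0.59 and -0.58. Those of Cd48 and Tnfrsf14 lay between -0.32 and -0.77 and were as often larger as smaller than with all days. CD8 Tnfsf10 moved from -0.45 to -0.13 (edgeR adjusted p = 0.52) without day 2. DESeq2 did not call Tnfrsf14 or Tnfsf10 in either subset. With scaling by library size alone the median log2 fold change over all genes was -0.17 in CD4 and -0.18 in CD8 cells, in place of -0.011 and -0.016 with TMM. Genes called higher and lower then numbered 637 and 1318 in CD4 cells, in place of 1029 and 656, and 687 and 1810 in CD8 cells, in place of 1100 and 868. With a factor for Y-linked transcripts Cd69, Icos and Cd27 were called in the same directions in both subsets, and Tnfsf8 in CD4 cells (0.55, edgeR adjusted p = 0.012) and Tnfsf11 in CD8 cells (0.92, edgeR adjusted p = 0.019) also passed.

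**Figure D5:**
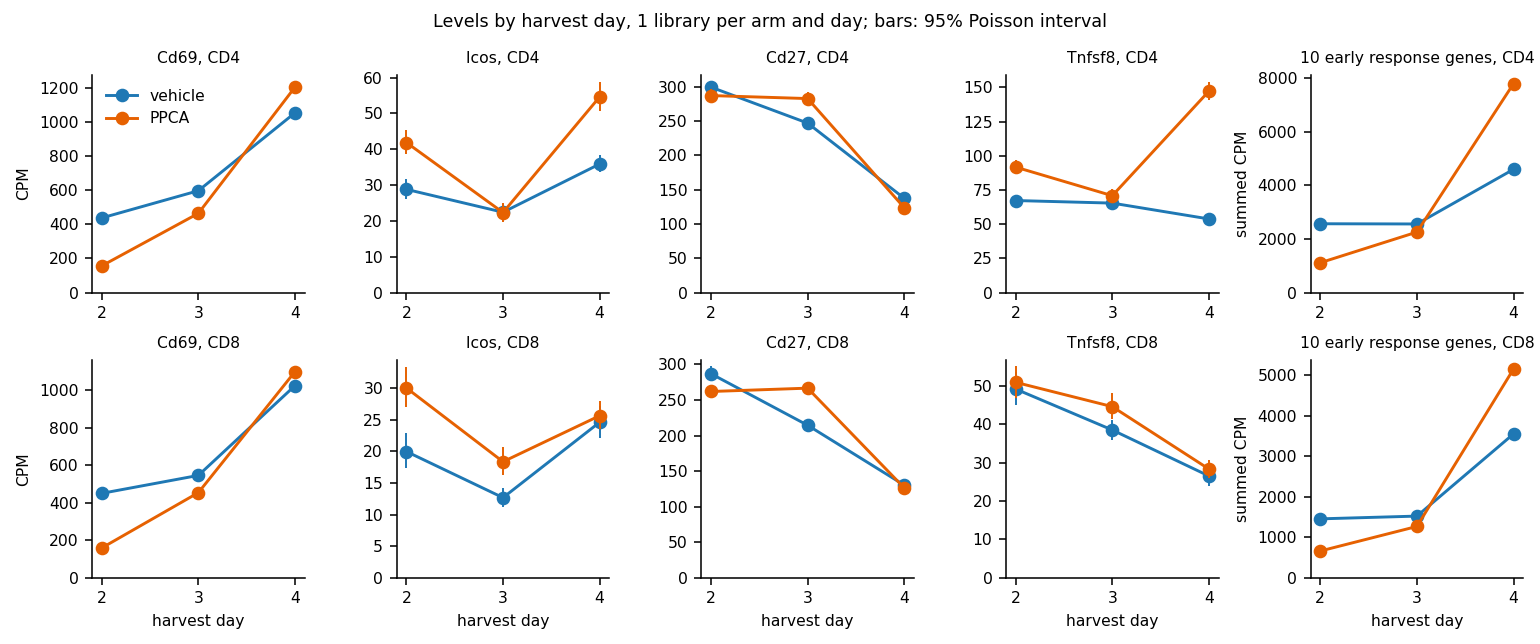
CPM of Cd69, Icos, Cd27 and Tnfsf8, and the summed CPM of the 10 early response genes, against harvest day in CD4 (top) and CD8 (bottom) cells of the vehicle and PPCA arms; bars are 95% Poisson intervals, which cover counting error only. Both day 4 points of Cd27 sit at 137 and 124 CPM in CD4 cells, below all earlier ones, and Tnfsf8 of PPCA on day 4 reaches 147 CPM in CD4 cells.

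Active and onset diabetes had 1 library each, so no test was possible. The rule for a change was a 2-fold gap between the libraries and 50 CPM or more in 1 of them, which only 5 of the 9 genes in CD4, 4 in CD8 and 7 in Foxp3-positive cells could meet by their level. Of these, 0 met it in any subset. It was met by 0.830% of 2771 genes in CD4, 1.73% of 2767 in CD8 and 1.39% of 3163 in Foxp3-positive cells. In CD8 cells Tnfsf11 stood at 1.43 CPM in active (28 UMIs) and 4.73 CPM in onset (53 UMIs), and Cd40lg at 2.65 CPM (52 UMIs) and 7.95 CPM (89 UMIs), both under 50 CPM. Cd69 was at 359 CPM in active and 470 CPM in onset CD4 cells, and Cd27 at 269 and 228 CPM. Red cell markers stood at 150.4 CPM in the active CD4 cells against at most 6.7 CPM in those of other libraries, and their part was not tested.

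Across the 16 sums of CD4 and CD8 cells, each gene was compared with the others of at least 20 CPM on average, by Pearson's r of log2(CPM + 1). Nearest to Cd40lg were Cd4 (0.98), which the gates used, Fam3c and Tmem154. Nearest to Tnfsf11 were Tbc1d4 (0.96), Znrf1 and Tnfrsf4, and to Cd44 were Hnrnpll (0.93), Nek7 and Ctsb. Nearest to Cd69 were Gm20186 (0.97), Jun (0.96), one of the early response genes, and Coq10b, and to Cd27 were AI467606 (0.99), Cdca4 and Mrpl53. The leading genes for the others were Stk39 for Icos (0.93), Actr8 for Tnfrsf9 (0.89), Snx2 for Tnfsf8 (0.85) and Pdlim2 for Cd2 (0.97). The points share libraries and depth, so these are descriptions.

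The authors' deposited table of markers for 7 named clusters lists all 9 genes. In the authors' deposited table, Tnfsf8 is a marker of the cluster named CD4 Th17 at a log2 fold change of 1.53 and of CD4 Treg at 1.20, and Icos of the same clusters at 0.93 and 0.83. The authors' deposited table gives Tnfrsf9 and Cd27 for CD4 Treg alone, at 0.66 and 0.56, and Cd69 for CD4 Th0 alone, at 0.80. In the authors' deposited table, Cd44 and Cd2 are the members listed for a CD8 cluster, CD8 TRM TEM, at 0.57 and 0.29.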

How the data were processed

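The deposited matrices hold UMI counts per gene and barcode that Cell Ranger made (6.0.0 per the file headers, 6.1.2 per the submitters' processing notes, which also name Seurat). No genome build is given in the sources used here. Of the other files, the authors' deposited marker table holds log2 fold changes and the fraction of cells detected for named clusters, made with all libraries together.

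Barcodes with at least 500 genes and under 10% mitochondrial UMIs were kept. The 395 to 1379 barcodes per library that scored highest in Scrublet, a number set from the library's barcode count, were removed as doublets. T cells had at least 2 UMIs over Cd3d, Cd3e, Cd3g, Trac, Trbc1 and Trbc2, and at most 1 UMI over Cd79a, Cd79b, Ms4a1, Lyz2, Csf1r and C1qa. CD4 cells had Cd4 and no Cd8a or Cd8b1, and CD8 cells the reverse. Foxp3-positive cells had at least 1 Foxp3 UMI. Counts were summed per library and subset and fitted with edgeR 4.0.16 (TMM scaling, filterByExpr at a count minimum of 10, quasi-likelihood test, Benjamini-Hochberg over all genes), with library as a block within libraries and harvest day as a factor for PPCA. One planned split of the cells is not reported here. For the CD8 minus CD4 differences each library and subset was modelled. DESeq2 1.42.0, library size alone, other filters, leaving out libraries and a factor for Y-linked transcripts were alternatives. The code was tested on simulated data. For detection, cells were thinned to 2000 UMIs. R was 4.3.3, Python 3.11.15 and scanpy 1.11.5.

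Same-day vehicle and PPCA sums deviated from their arm means together (correlation 0.19 to 0.52 over genes in 9 of 9 pairs), so day pairs the libraries. The 9 genes and the lists were chosen with earlier results of these data known. The genes named are the 9, up to 4 other costimulatory genes per comparison by fold change among those called, and the 3 most correlated genes of each of the 9. Cd5, called lower on day 4 in CD8 cells, is named beyond that rule.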

Additional observations from a re-analysis of the deposited data

Results flagged for a closer look

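On day 4 against days 2 and 3, Tnfsf8 was at 0.48 in CD4 and -0.57 in CD8 cells, a difference between the subsets of -1.03 that passed its own test (edgeR adjusted p = 0.032), given above with the settings that lose it. On that day CD4 Tnfsf8 stood at 147 CPM in PPCA and 53.8 CPM in vehicle, and CD8 Tnfsf8 at 28.3 and 26.5 CPM.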

How the results depend on the processing

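Of 945 values of the 9 genes under alternatives, 903 kept their side of the threshold and, where called, their direction, 13 lost a call, 28 gained one and 1 reversed: Cd69 in Foxp3-positive cells, at 0.12 with library size alone. Of 585 uncalled values, 34 changed sign. Without the library as a replicate block, genes called numbered 2019 in CD8 against CD4 and 2301 in Foxp3-positive against Foxp3-free CD4 cells. In CD8 against CD4 cells Icos, Cd44 and Cd2 then lost their calls (edgeR adjusted p = 0.12, 0.054 and 0.16). Cd27 lost its call in Foxp3-positive cells (edgeR adjusted p = 0.145). Without the day as a replicate block, PPCA called 0 in CD8 and 0 in Foxp3-positive cells. DESeq2's test called 34 and 39 genes for PPCA in CD4 and CD8 cells, and 1272 for day 4 in CD8 cells. For PPCA in CD4, CD8 and Foxp3-positive cells, dropping the low-count filter called 165, 156 and 99 genes, and a factor for Y-linked transcripts called 133, 290 and 123. That factor called 2927 and 3578 genes for day 4 in CD4 and CD8 cells. PPCA in CD8 cells called 0 with the looser cell filter and 0 without doublet removal. Leaving out 1 day at a time, PPCA called 0 to 41 genes in CD4, 0 to 227 in CD8 and 10 to 80 in Foxp3-positive cells, most without day 4, and day 4 called 699 to 762 in CD4 and 426 to 1191 in CD8 cells, least without day 3. The cause was not tested. Of 54 median shares of cells, 44 moved by more than their spread without thinning or at 3000 UMIs, where more UMIs per cell detect more. With 1 library per arm and day and 216 to 471 Foxp3-positive cells per library, low genes such as Tnfsf11 limit what could be shown.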
